A study of Gorilla gorilla with 12 samples.

Results

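The comparison concerns 1 line of gorilla fibroblasts, KB_7621, established from a 26-year-old male. Of the 12 expression arrays in the series, 2 hold RNA of this line. One array (KB_7621_50%) came from a culture harvested at 50% confluence, when the cells covered about that share of the dish, and the other (KB_7621) from a culture harvested by the standard procedure. Both were chosen by their titles. The sources used here do not state the confluence at standard harvest. The remaining 10 arrays hold standard cultures of 10 other lines, with donors between 2 and 35 years old, and together with the standard culture of KB_7621 they make up the 11 standard arrays. No treatment or engineered allele is given for any culture.

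Fibroblasts that cover the dish and touch their neighbours slow or stop dividing, a state called contact inhibition or quiescence. Quiescent fibroblasts are known for holding back cyclins and replication enzymes, for making inhibitors of cyclin-dependent kinases, and for continued secretion and turnover of the matrix around them. A sparse culture has more free surface and a larger share of cells in the cycle. The comparison asks which of these programmes, and which others, differed in RNA level between the 2 cultures.

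With 1 array for each culture there is no replicate check and no p-value. Density, culture and array cannot be told apart. The spread of the 11 standard arrays, a spread between animals, is the only error at hand, and a value is called above or below the standard range when it lies beyond all 11. Differences are log2 values at 50% confluence minus standard after quantile normalization, a difference of 1 is 2-fold, and intensities are printed as deposited. The lowest deposited intensity is 100, the floor, and a fold against a value at the floor is a lower bound, written as at least. In bulk RNA, fewer cells of a type and less RNA per cell cannot be told apart.

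The array at 50% confluence was the dimmer of the pair at the floor and at the maximum, but not throughout. It had 49.2% of its 12625 probe sets at the floor, against 40.1% on the standard array of the line and 40.1 to 48.8% on the 11 standard arrays. Its highest intensity was 18027, against 43135 on the standard array of the line. The ratio of 3' to 5' GAPDH probe sets, a sign of RNA integrity, was 0.990 at 50% confluence and 1.30 in the standard culture (0.821 to 1.34 on the standard arrays). For ACTB, beta-actin, the same ratio was nearly equal, 0.857 at 50% confluence and 0.865 in the standard culture (0.672 to 1.19 on the standard arrays). The part of brightness and RNA integrity in the differences below was not tested. All 12 fibroblast markers with a probe set were above the floor in both cultures, with a summed intensity of 84887 at 50% confluence and 145080 in the standard culture (83022 to 145080 on the standard arrays). Of 11 immune markers, 2 were above the floor at 50% confluence and 5 in the standard culture, with sums of 1572 and 2238, and PTPRC, CD3D, ITGAM, LCP1 and LYZ were at the floor on all 12 arrays. Of 13 epithelial markers, 3 and 5 were above the floor, with sums of 5658 at 50% confluence and 4725 in the standard culture (4115 to 6639 on the standard arrays). RPS4Y1, a Y-linked ribosomal protein gene, read 3540 at 50% confluence and 2662 in the standard culture. It also read 2595 in KB_6278, which is labelled female, so the range was also taken without that array.

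The 2 cultures of KB_7621 were not each other's nearest neighbours. Over the 7541 probe sets tested, 1076 differed 2-fold or more between them. Against the 10 other lines, the array at 50% confluence differed at 597 probe sets from KB_8594, the nearest, and at 1105 from KB_6278, the farthest, and 9 of the 10 were closer than its own line. Pearson's r across probe sets was 0.914 with the standard array of the line and 0.899 to 0.942 with the others, and probe sets are not independent replicates. Over the 200 most variable probe sets, r was 0.0707 with the own line and -0.412 to 0.518 with the others, and on this measure 3 of the 10 other lines were closer than the own line. The standard array of KB_7621 differed from the other lines at 821 to 1453 probe sets, with a median of 1015. That both cultures are 1 line rests on the labels.

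**Figure D1:**
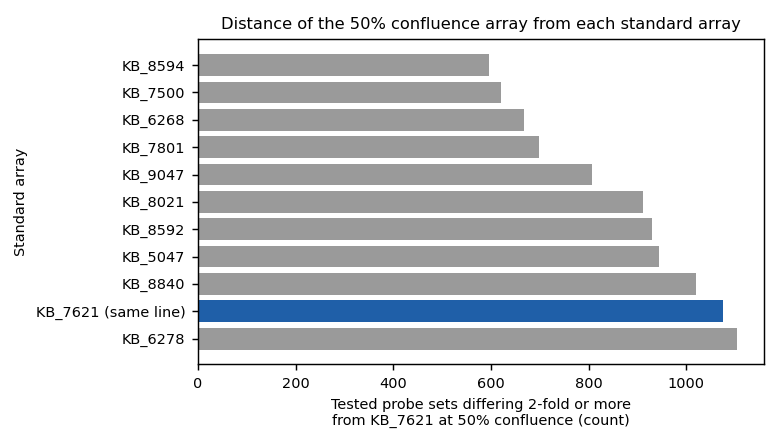
Number of tested probe sets (horizontal axis, count) that differed 2-fold or more between the array at 50% confluence and each of the 11 standard arrays, 1 bar an array, with the standard array of the same line in blue. The own line's 1076 is exceeded only by the 1105 of KB_6278.

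The differences ran in both directions. Of the 7541 probe sets, 531 (7.04%) were 2-fold or more higher at 50% confluence and 545 (7.23%) were 2-fold or more lower. The split depends on the scaling, with 377 higher and 849 lower in the values as deposited, 396 and 823 after median scaling, and 522 and 537 after cyclic loess. Among the 531 higher probe sets, 134 stood at the floor in the standard culture, and among the 545 lower ones, 212 stood at the floor at 50% confluence. The standard range was exceeded by 124 of the higher probe sets (1.64% of those tested), of which 98 (1.3%) were also above it in the deposited intensities. It was undercut by 113 of the lower ones (1.5%), of which 108 (1.43% of those tested) were also below it as deposited. By genes, with the brightest tested probe set for each, 399 of 5480 (7.28%) were higher and 359 (6.55%) lower. These shares over all genes are the background for the counts of 2-fold list members given below.

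For many of these probe sets it was the standard culture that stood apart. Among the 531 higher probe sets, 90 had only the array at 50% confluence outside the range of the 10 other lines, 155 had only the standard array of KB_7621 outside it, 34 had both and 252 neither. Among the 545 lower ones the counts were 73, 231, 41 and 200. Over all tested probe sets, the array at 50% confluence lay outside that range at 972 (12.9%) and the standard array of the line at 1398 (18.5%). The genes described most fully below are therefore given with the lowest, median and highest of the 11 standard arrays.

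Where a gene has several probe sets on the array, each is a separate reading of the same pair of RNA samples, and their agreement speaks to probe error, not to culture error. Of 956 genes with 2 or more tested probe sets, 10 (1.05%) had every probe set 2-fold or more higher and 17 (1.78%) every one 2-fold or more lower. A further 272 had some probe sets past 2-fold and some not, and 5 had probe sets past 2-fold in opposite directions. Among the 567 genes whose probe sets all reached 200 on the brighter array, 200 had at least 1 past 2-fold, and in 136 of these (68.0%) all probe sets had the same sign, against 56.6% of all 567.

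**Figure D2:**
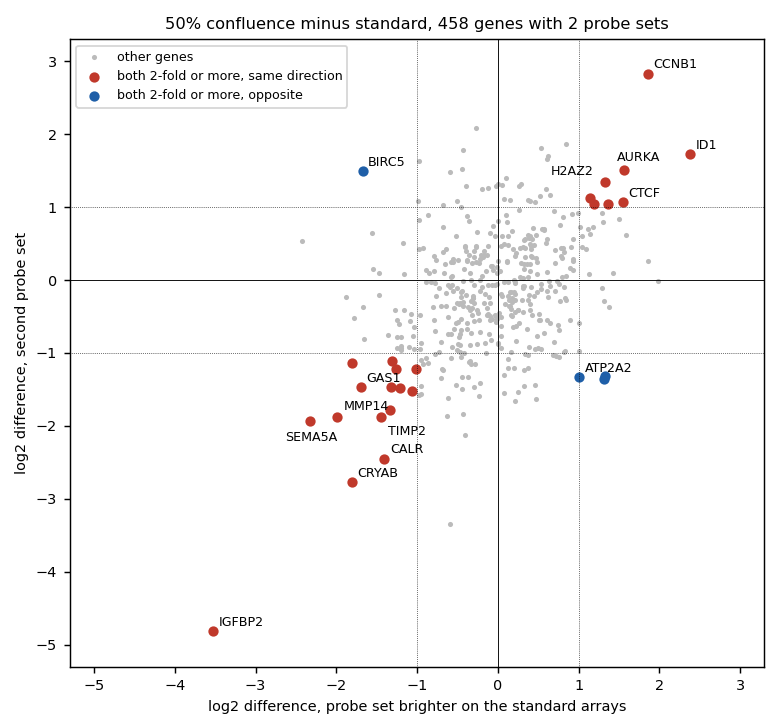
Log2 difference, 50% confluence minus standard, of both probe sets of 458 genes with 2 tested probe sets that reached 200 on the brighter array (horizontal axis, the probe set brighter on the standard arrays, vertical axis, the other). Red points, 23 genes, are past 2-fold in the same direction, and blue points, 4 genes, in opposite directions, with IGFBP2 farthest down and CCNB1 and ID1 farthest up among the labelled genes.

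Genes of mitosis stood highest among the 46 pathway lists. Of 38 tested members, 22 were 2-fold or more higher at 50% confluence, 1 was lower, and 36 had a positive difference, with a median of 1.16 against 0.0043 over all 5480 genes. CCNB1, the cyclin that drives entry into mitosis, read 1268 at 50% confluence and 358 in the standard culture on 1 probe set (standard arrays 149, 381 and 1315 as lowest, median and highest), and 1034 and 161 on the other (133, 375 and 1055). The differences were 1.86 and 2.83, and both values at 50% confluence lay inside the standard range. AURKA, a kinase of the spindle poles, was 2.95-fold and 2.84-fold higher on its probe sets. CCNB2, a second B-type cyclin, read 848 against 182 (134, 269 and 1224), a difference of 2.36. BUB1B, which holds back anaphase until chromosomes are attached, read 646 at 50% confluence and stood at the floor in the standard culture (100, 252 and 567), at least 6.46-fold higher and above the standard range. Its partner BUB3 was also above the range, at 1699 against 615 (527, 774 and 1333), but its second probe set differed by 0.097. CDK1, the kinase partner of the B cyclins, was likewise split, with 1.65 on 1 probe set and 0.27 on the other. BIRC5, which guides chromosome segregation, had opposite readings, 151 against 560 on 1 probe set and 269 against 116 on the other. The mean level of the list, on the log2 scale, was 9.04 at 50% confluence and 7.97 in the standard culture, inside the 7.31 to 9.38 of the standard arrays, where the standard culture of KB_7621 was the ninth of 11 from the top.

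DNA replication and the supply of its building blocks were higher as well, with smaller differences. In the list of licensing and fork proteins, 9 of 35 tested members were 2-fold higher, 1 was lower and 30 were positive, with a median of 0.85. RPA3, a subunit of the protein that coats single-stranded DNA, differed by 1.86 on 1 probe set and 0.76 on the other, and LIG1, the ligase that joins Okazaki fragments, read 323 at 50% confluence against the floor in the standard culture, at least 3.23-fold higher. PRIM1, the primase subunit, went the other way, with the floor at 50% confluence and 235 in the standard culture. Among 23 genes of nucleotide synthesis, 4 were 2-fold higher and 21 positive, with a median of 0.62. RRM1, the large subunit of ribonucleotide reductase, read 706 against 198, and that 198 was the lowest of the 11 standard arrays (median 433, highest 1167). In DNA repair, 6 of 19 were 2-fold higher, MSH6 of mismatch repair by 1.33 and PARP1 by 1.12 among them, with 0.70 on the second probe set of PARP1. No member of the replication list lay above the standard range.

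The growth arrest genes split by family member. Of 22 tested, 4 were 2-fold lower, 2 were higher, and the median was -0.0027. GAS1, a membrane protein known from growth-arrested fibroblasts, was lower on both probe sets. It read 487 against 1569 (717, 1569 and 5850 on the standard arrays) and 467 against 1255 (727, 1255 and 4252), differences of -1.70 and -1.47, and both values at 50% confluence were below the whole standard range. CDKN1C, the inhibitor p57, read 111 against 405 (165, 369 and 1176) on the brightest of 3 probe sets, also below the range, while its other probe sets were at the floor in both cultures. CDKN1A, the p53-induced inhibitor p21, read 4233 against 8479 (4379, 4970 and 9856), a difference of -1.06, just below the range. CDKN3, a phosphatase of CDK1 and CDK2 whose RNA follows dividing cells, was the exception with 1.64. CDKN2A read 183 against the floor, at least 1.83-fold higher, and passed 2-fold only after normalization. The 18 cyclins and E2F factors of the G1/S list held no member past 2-fold in either direction.

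ID1, which blocks differentiation-promoting helix-loop-helix factors and is a target of BMP signalling, was among the genes with full agreement of probe sets. It read 12362 at 50% confluence and 2897 in the standard culture (2897, 7577 and 14062), and 3014 against 872 (817, 1499 and 3058), differences of 2.38 and 1.73. The standard culture of KB_7621 was the lowest of the 11 standard arrays on the first probe set. Its relative ID3 read 8529 against 8608, a difference of -0.038. In the same signalling list GREM1, a secreted BMP antagonist, differed by -2.04 on 1 probe set and 0.59 on the other, and 27 tested members had a median of -0.037.

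**Figure D3:**
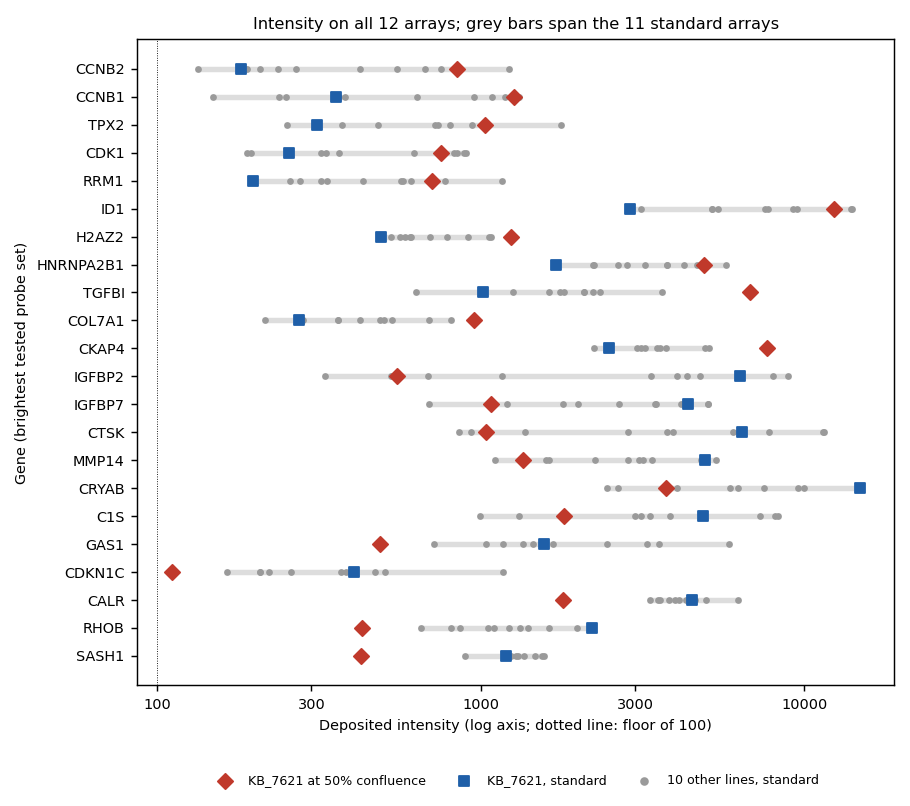
Deposited intensity (log axis, floor of 100 dotted) of the brightest tested probe set of 22 genes on all 12 arrays, with the culture at 50% confluence as red diamonds, the standard culture of KB_7621 as blue squares and the 10 other lines as grey points. TGFBI, COL7A1 and CKAP4 at 50% confluence lie to the right of every standard array, and GAS1, CDKN1C, CALR, RHOB and SASH1 to the left of every one.

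Chromatin, splicing and nuclear transport genes had positive medians beyond the cell cycle proper. Of 24 genes of histones and chromatin assembly, 7 were 2-fold higher and none lower, with a median of 0.51. H2AZ2, a replacement histone, was above the standard range on both probe sets, at 1244 against 492 (492, 608 and 1073) and 824 against 331 (331, 559 and 793), differences of 1.32 and 1.35. H2AZ1, its paralog, read 2644 against 963. The 2 standard readings of H2AZ2 were the lowest of the 11 standard arrays. CTCF, which organises chromatin loops, was higher on both probe sets, by 1.55 and 1.07.

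Of 40 splicing factors and hnRNPs, 9 were 2-fold higher, none was 2-fold lower and 33 were positive, with a median of 0.59. SRSF1, a general splicing activator, was higher on both probe sets, by 1.14 and 1.12. SRSF11 read 1174 against 504 (444, 541 and 739) and HNRNPD, which binds AU-rich elements, 1697 against 725 (725, 1094 and 1549), both above the standard range. HNRNPA2B1, an hnRNP core protein, read 4903 against 1712 (1712, 3217 and 5718), inside the range. The list mean at 50% confluence lay inside the standard range of 9.45 to 10.12, and the standard culture of KB_7621 was the lowest of the 11 at 9.45. In nuclear transport, 6 of 24 were 2-fold higher and none lower, with a median of 0.62, led by the nucleoporin NUP155 with 1.62 and the Ran cofactor RANBP1 with 1.60. RANBP1 read 820 against 280, the lowest standard value (median 438, highest 1426).

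The machinery of protein production and turnover differed by less than 2-fold in most members, while several members exceeded all standard arrays. Over all genes, 7.21% lay above the standard range and 4.87% below it, at any fold. Of 24 aminoacyl-tRNA synthetases and amino acid response genes, 6 lay above the range, also as deposited, and none below. GARS1, glycyl-tRNA synthetase, read 7048 against 4356 (2207, 3148 and 4356), although its second probe set differed by -0.075. PSPH, the last enzyme of serine synthesis, read 442 against 229 (150, 271 and 372) and was above the range on its other probe set too. The mean level of this list was 10.65 at 50% confluence and 10.42 in the standard culture, above the 9.95 to 10.49 of the standard arrays, while its median difference was 0.20.

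Among 49 nuclear-coded genes of the respiratory chain and the TCA cycle, 38 were positive, 1 was 2-fold higher and 1 lower, with a median of 0.33. The list mean was 10.33 at 50% confluence and 10.04 in the standard culture, just above the 9.97 to 10.31 of the standard arrays. CS, citrate synthase, read 2940 against 1669 (1652, 2106 and 2756), and COX5B, a subunit of cytochrome oxidase, 4700 against 2346 (1969, 3226 and 4459), with its second probe set at 1608 against 1249 (787, 1202 and 1439). Of 29 proteasome genes, 6 were above the range and 22 positive, with a median of 0.35. PSMB7, a catalytic subunit, read 1566 against 665 (665, 898 and 1284), with 0.73 on its second probe set. NCL, a nucleolar protein of ribosome assembly, read 5249 against 2054, the lowest standard value (median 3557, highest 6706), and 14 of the 17 genes on that list were positive. The 39 cytosolic ribosomal protein genes held none past 2-fold, with a median of -0.047 that was -0.46 as deposited and -0.34 after loess. Of these genes, 7 lay above the standard range and 5 below it. None of the 7 was also above it as deposited, while all 5 were also below it.

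Tubulins and microtubule proteins formed the third list whose mean was above the standard range, at 10.99 at 50% confluence and 10.47 in the standard culture, against 10.45 to 10.89 on the standard arrays. Of 24 tested, 20 were positive, 3 were 2-fold higher and none lower, and 6 were above the range. CKAP4, a membrane protein that links the endoplasmic reticulum to microtubules, read 7692 against 2494 (2240, 3225 and 5064), a difference of 1.60. DYNLL1, a dynein light chain, read 9671 against 6273 (5932, 7366 and 9530). MAP1B was above the range with 1.37 on 1 probe set and differed by -0.37 on the other.

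Cholesterol genes and metallothioneins had positive medians. Among 19 genes of cholesterol synthesis and uptake, 14 were positive and 2 were 2-fold higher, with a median of 0.42. INSIG1, the sterol-regulated brake on this pathway, read 1924 against 733 (446, 843 and 1439), above the range, and DHCR7, the last enzyme of the pathway, differed by 1.09. The 20 genes of fatty acid synthesis and lipid storage had a median of -0.080, with 6 positive, 12 negative, and 1 past 2-fold in each direction. All 6 tested metallothioneins, small metal-binding proteins, were positive, with a median of 0.94 and MT3 and MT1H past 2-fold at 1.22 and 1.10 on their brightest probe sets. The second probe set of MT3 was at the floor in both cultures. Their sequences are near-identical, so their probe sets may share signal. No metallothionein was outside the standard range.

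The lists just named as higher, from mitosis to metallothioneins apart from the growth arrest, BMP and ribosomal protein lists, kept a positive median in the values as deposited, after median scaling and after loess. Quantile normalization raised the median differences of dim, of mid-intensity and of very bright probe sets. In the dimmest, middle and brightest of 3 equal groups of tested probe sets, the median difference was -0.18, -0.12 and 0.087 as deposited, and 0, 0.072 and 0.052 after quantile normalization. Among 151 probe sets of 10000 or more on either array, the median difference was -0.55 as deposited and 0 after quantile normalization. The tested probe set of GAPDH shows the size of this step. It read 15724 at 50% confluence and 13151 in the standard culture, giving 1.04 after normalization, with 22899 as the highest standard intensity. The bright control probe sets of GAPDH were lower as deposited, at 16004 against 21530, 12078 against 23071 and 16161 against 16549. Their normalized differences were 0.48, -0.28 and 0.86.

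**Figure D4:**
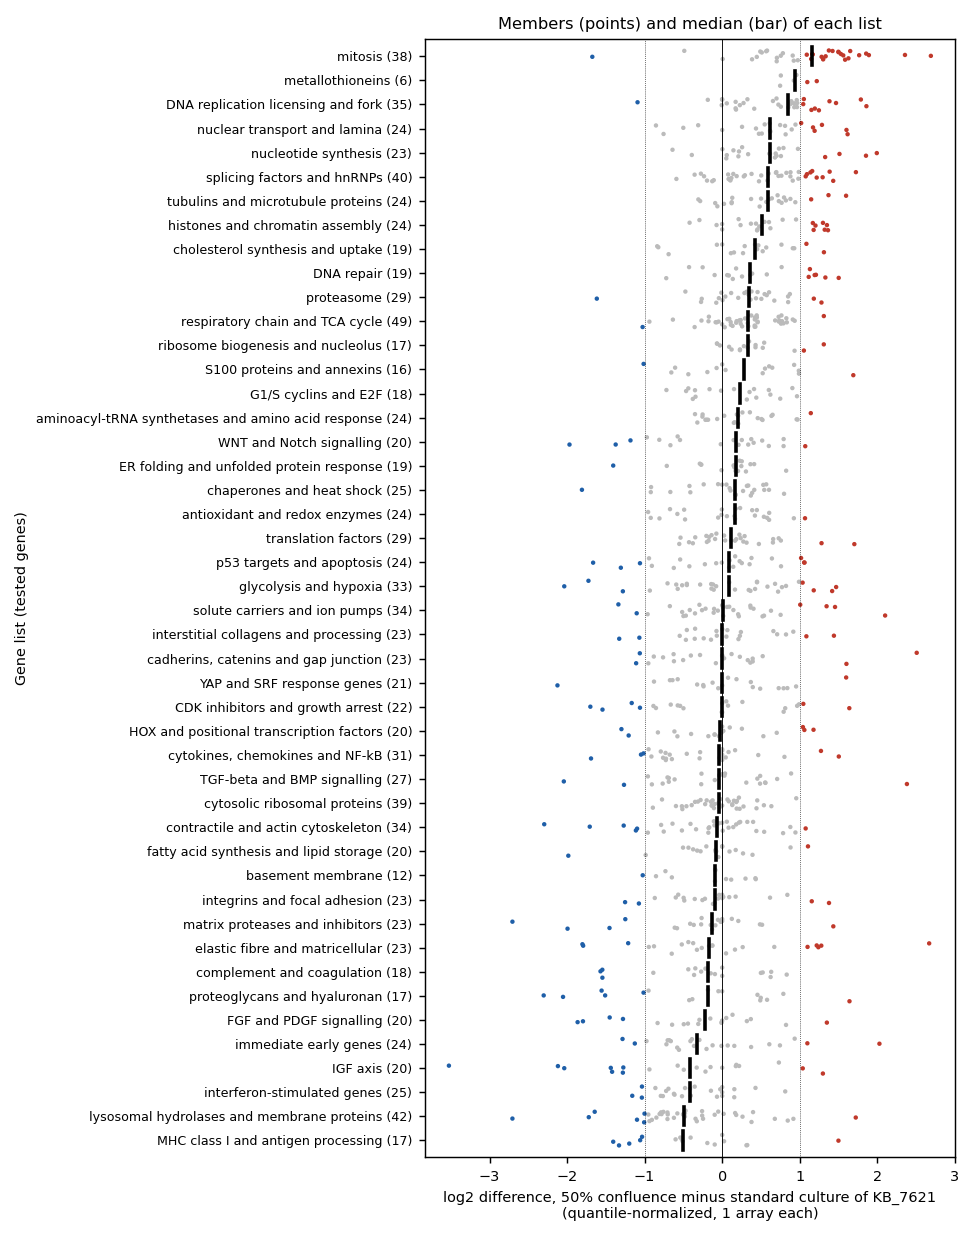
Log2 difference, 50% confluence minus standard culture, of every tested member (points) of 46 pathway lists, ordered by their median (black bar), with the number of tested genes in parentheses. Red and blue points are 2-fold or more higher and lower, and dotted lines mark 2-fold. Mitosis has the highest median at 1.16 and MHC class I and antigen processing the lowest at -0.51.

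The IGF axis held the largest difference among the 17 genes that were lower on every probe set. IGFBP2, a secreted protein that binds insulin-like growth factors, read 550 at 50% confluence and 6346 in the standard culture (331, 4036 and 8899), and 164 against 4951 (142, 2267 and 5372). The differences were -3.52 and -4.82, both inside the wide spread between lines. IGFBP7, a related secreted protein, read 1074 against 4362 (693, 3471 and 5058), and STC1, an inhibitor of the IGFBP-cleaving protease PAPPA, 145 against 676 (156, 676 and 1649). PAPPA itself stood at the floor at 50% confluence and at 287 in the standard culture, at least 2.67-fold lower. IGFBP3, the main carrier of IGFs in serum, went the other way, at 12519 against 6410, the lowest standard value (median 12492, highest 18608), with 0.79 on its second probe set. Of 20 tested members, 7 were 2-fold lower and 2 higher, with a median of -0.41.

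Matrix proteases and their inhibitors were 2-fold lower in 4 of 23 tested members, 3 of them on every probe set, and higher in 1. CTSK, a collagen-degrading lysosomal cysteine protease, was lower on 3 probe sets, with differences of -2.70, -1.81 and -1.98, with 1036 against 6411 on the brightest (860, 3922 and 11479). MMP14, the membrane-bound metalloproteinase that activates MMP2, read 1350 against 4927 (1107, 3080 and 5341) and 418 against 1541 (100, 774 and 1541). TIMP2, which takes part in that activation and inhibits metalloproteinases, read 2887 against 7479, the highest standard value, and 1140 against 3918, differences of -1.45 and -1.87. MMP2 itself differed by -0.37 and TIMP1 by -0.27. All values of CTSK, MMP14 and TIMP2 at 50% confluence were inside the standard range, and the list median was -0.13.

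Matrix proteins went both ways. In the list of elastic fibre and matricellular proteins, 5 of 23 were 2-fold higher and 3 lower, with a median of -0.17. TGFBI, a secreted adhesion protein induced by TGF-beta, read 6800 at 50% confluence and 1016 in the standard culture (630, 1814 and 3634), a difference of 2.67 and above every standard array. FBN1, the main microfibril protein, was also above the range, at 7832 against 3455 (2004, 3129 and 6343). ELN, the elastin core of the fibre, was lower on both probe sets, with differences of -1.21 and -1.48, and THBS2 likewise, with differences of -1.80 and -1.14. FBLN5, which places elastin on microfibrils, read 217 against 802 (271, 635 and 802), below the range.

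Of 23 tested genes of collagens and their processing, 2 were 2-fold higher and 2 lower (8.70% each). These shares were near the 7.28% higher and 6.55% lower over all genes, and the list median was 0.0014. COL3A1 read 5409 against 1906, the lowest standard value (median 2843, highest 5193), and LOX, the enzyme that crosslinks collagen and elastin, 9019 against 4186 (2396, 5041 and 10180). COL11A1 and the propeptidase ADAMTS2 were lower, with differences of -1.07 and -1.33. COL7A1, the anchoring fibril collagen, is not on this list and is not in its counts. It read 951 against 275 (216, 424 and 811), above the range. COL1A1 had a difference of -0.55 on its brightest probe set and 0.35 on the other, and COL1A2 had 0.23, 0.012 and 0.49. Among proteoglycans, 5 of 17 were 2-fold lower and 1 higher. FMOD, a collagen-binding proteoglycan, read 115 against 667, the highest standard value, and ACAN, the cartilage proteoglycan, was lower on 3 probe sets, with differences of -2.05, -1.69 and -2.58. ACAN read 331 against 1424 on the brightest, where the standard median was 228, so the standard culture was the higher-lying one. HAS2, a hyaluronan synthase, read 289 against the floor, at least 2.89-fold higher.

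Chaperone lists had positive medians and 1 member each past 2-fold, while lysosomal genes had a negative median. CALR, calreticulin, a calcium-binding chaperone of the endoplasmic reticulum, was below the standard range on both probe sets, at 1803 against 4513 (3349, 4116 and 6228) and 437 against 2438 (897, 1493 and 2438), differences of -1.40 and -2.45. Its partner CANX differed by 0.20 and HSPA5, the main chaperone of that compartment, by 0.25, and CALR was the 1 of 19 past 2-fold in the folding list, where 13 were positive and the median was 0.17. CRYAB, a small heat shock protein, was lower on both probe sets, at 3753 against 14881 (2457, 6250 and 14881) and 1414 against 9262 (955, 3049 and 9262). Its relative HSPB1 differed by 0.11. CRYAB was the 1 of 25 past 2-fold in the list of chaperones and heat shock proteins, where 16 were positive and the median was also 0.17. HSPA2, a heat shock protein not on that list, was also lower on both probe sets. It read 267 against 718 (196, 590 and 1547) and 122 against 508 (145, 372 and 818), differences of -1.33 and -1.78. Of 42 lysosomal genes, 32 were negative, 6 were 2-fold lower and 1 higher, with a median of -0.50. SGSH and ARSB, which degrade sulphated glycosaminoglycans, stood at the floor at 50% confluence, at least 3.29-fold and 3.12-fold lower. CD63, a membrane protein of late endosomes, read 6104 against 11655 (6862, 9442 and 11655), below the range with a difference of -0.85. ATP6V1H, a subunit of the proton pump, was the 2-fold higher member, with 1.72.

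Immune-related lists lay low at 50% confluence. MHC class I and antigen processing had the lowest median of all pathway lists, -0.51. Of 17 tested genes, 5 (29.4%) were 2-fold lower and 1 (5.88%) higher, against 6.55% and 7.28% over all genes. The list mean was 8.918 at 50% confluence and 9.31 in the standard culture, just below the lowest standard mean of 8.922. The 5 lower genes included the chaperone CALR and the class II gene HLA-DRA, the latter at the floor against 231, both below the standard range. The list mean without them was not computed, so its place below the range cannot be assigned to class I genes. HLA-F was lower with -1.20 and -0.93 on its probe sets, and B2M, the light chain of class I molecules, had -0.52, -0.19 and -0.45. HLA genes are near-identical in sequence and their probe sets may share signal. PSMB8, a subunit of the immunoproteasome, read 362 against 156. Among 25 interferon-stimulated genes, 3 (12%) were 2-fold lower and none higher, with a median of -0.41. Their mean of 8.16 at 50% confluence was below the 8.19 to 8.62 of the standard arrays. OAS2, an antiviral enzyme, stood at the floor against 228 (141, 220 and 373), IFITM1 read 215 against 444 (396, 719 and 864) and IFITM3 8319 against 11484 (11484, 14020 and 17330), each below the range.

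The classical complement proteases C1R and C1S and their inhibitor SERPING1 lay lower by nearly the same amount. C1R read 767 against 2186 (600, 2186 and 4712), C1S 1808 against 4867 (994, 3329 and 8295) and SERPING1 820 against 2306 (620, 1856 and 3734), differences of -1.57, -1.54 and -1.55, each inside the standard range. They were the 3 members past 2-fold among 18 (16.7%, against 6.55% lower over all genes). The list of cytokines, chemokines and NF-kB had a mean of 8.09 at 50% confluence and 8.33 in the standard culture. The mean at 50% confluence was below the 8.18 to 9.43 of the standard arrays, although the median difference was -0.035. Of 31 members, 3 (9.68%) were 2-fold lower and 2 (6.45%) higher, against 6.55% and 7.28% over all genes. PTGES, which makes prostaglandin E, read 694 against 2191 (1008, 2454 and 5022), and IL1R1, the signalling receptor of interleukin 1, 781 against 1420, both below the range. IL6 read 542 against 884, inside a range of 125 to 14499. Immediate early genes had a median of -0.33 over 24 genes and a mean below the range, with DUSP1, a phosphatase of MAP kinases, at 597 against 1429 (669, 849 and 1503). Of the 24, 2 were 2-fold lower and 2 were 2-fold higher (8.33% each), and 8 were positive. FOSB at 391 and DUSP2 at 191 stood against the floor, at least 3.91-fold and 1.91-fold higher. DUSP2 thus passed 2-fold only after normalization, with a difference of 1.10.

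Cytoskeletal and adhesion genes were mixed. Of 34 contractile and actin genes, 5 were 2-fold lower and 1 higher, with a median of -0.070. MYLK, the myosin light chain kinase, stood at the floor at 50% confluence and at 504 in the standard culture, at least 4.91-fold lower. Smooth muscle LMOD1 differed by -1.71 and the light chain MYL9 by -1.10. ACTA2, smooth muscle actin, read 5574 against 8966 (885, 6073 and 17653), a difference of -0.75. RHOB, an endosomal GTPase, read 430 against 2203 (656, 1226 and 2203), below the range with a difference of -2.33, and its standard culture was the highest of the 11. Among adhesion molecules ALCAM read 1259 against 418 (418, 688 and 1135), above the range, and THY1, a fibroblast surface marker, 2598 against 5147. PCDH9, a protocadherin, was above the range on 1 probe set with 2.51 and differed by 0.14 on the other.

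SASH1 and LRRC32, each with 1 tested probe set, lay below every standard array. SASH1, a scaffold protein, read 427 at 50% confluence and 1195 in the standard culture (892, 1283 and 1572), which lies at -6.54 standard deviations of the 11 standard arrays from their mean on the log2 scale. LRRC32, which tethers latent TGF-beta at the cell surface, read 968 against 3462 (1650, 2181 and 4195). SEMA5A, a guidance molecule, was lower on both probe sets, with differences of -2.32 and -1.94, but there the standard culture held the highest values of the 11, 2601 and 907. FGFR1 showed the limit of 1 probe set, with 2403 against 5446 and -1.28 on the brightest and 0.35, 0.073 and -0.34 on the other three. WNT and Notch genes had no stable sign, with a median of 0.18 that was -0.045 as deposited and -0.030 after median scaling. Of 20 tested, 3 (15%) were 2-fold lower and 1 (5%) higher, against 6.55% and 7.28% over all genes. The list mean at 50% confluence, 8.401, was just below the lowest standard mean of 8.402.

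Setting each culture against the median of the 10 other lines divided the list differences between the pair. For mitosis, the list median was 0.49 for the culture at 50% confluence and -0.54 for the standard culture of KB_7621. For DNA replication the values were 0.22 and -0.42, for splicing factors 0.16 and -0.31, and for metallothioneins 0.35 and -0.61. In these lists the standard culture was at least as far from the other lines as the culture at 50% confluence. The reverse held for ribosome biogenesis, with 0.42 and -0.078, for the proteasome, with 0.25 and -0.072, for the IGF axis, with -0.54 and 0.021, and for cytokines, with -0.46 and -0.035. Aminoacyl-tRNA synthetases were above the other lines in both cultures, with 0.36 and 0.23, and matrix proteases below them in both, with -0.35 and -0.12. Lysosomal genes again divided, with -0.19 and 0.28. Over the 46 pathway lists, the mean at 50% confluence was above the standard range in 3 and below it in 5.

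**Figure D5:**
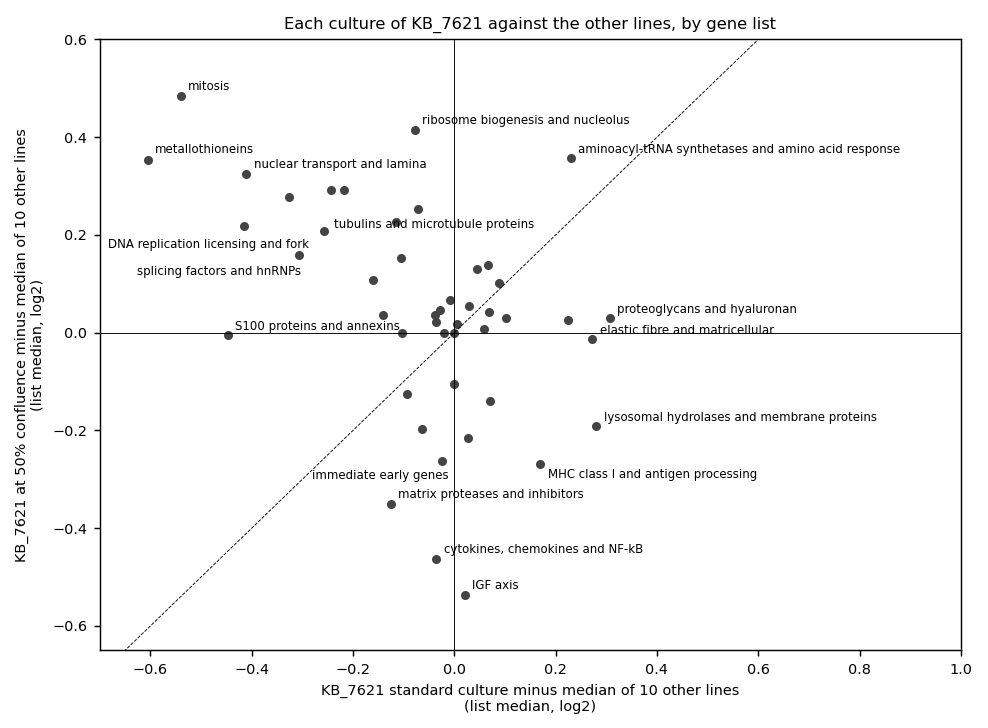
List medians of log2 differences from the median of the 10 other lines, with the culture at 50% confluence on the vertical axis and the standard culture of KB_7621 on the horizontal axis, 1 point for each of 46 pathway lists and the line of equal values dashed. Mitosis lies at upper left, with 0.49 and -0.54, and the IGF axis at the bottom near the vertical line, with -0.54 and 0.021.

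Across the 46 pathway lists, with each gene counted once, 201 genes were past 2-fold, and 59 of them had a further tested probe set. Every further probe set had the same sign in 41 genes, and at least 1 had the opposite sign in 12. In 16 genes every further probe set was itself 2-fold or more in the same direction. Among the 5 genes with opposite probe sets, ATP2A2, a calcium pump, had 1.01 and -1.34. PPIL2, a cyclophilin, had 1.31 on 1 probe set and stood at the floor at 50% confluence on the other.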

How the data were processed

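RNA of 12 gorilla fibroblast cultures was measured on 12 expression arrays, 1 array for each culture. The authors deposited linear intensities, 1 for each of 12625 probe sets and array, with a floor of 100. The software, scaling and floor setting behind these intensities are not recorded in the sources read here. Probes were designed on human sequence, so no level is compared between genes. The number of arrays limits the precision. Gene names came from the platform annotation, which gave 1 symbol for 10961 probe sets, several for 545 and did not list 1119. The 67 control probe sets were used only as a check of RNA.

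Log2 intensities were quantile normalized over 12 arrays with limma 3.58.1 in R 4.3.3. A probe set was kept if its mean exceeded the 40th percentile (6.79). This left 7541 probe sets and 5480 genes, each gene represented by its kept probe set with the highest mean. Lists held 1560 genes, of which 1310 had a probe set and 1123 were tested. The members and lists were chosen with earlier results of these data known.

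Genes were named by these rules: up to 20 genes per direction with all probe sets 2-fold different and each at 200 or more on the brighter array, the 15 largest single probe set differences per direction outside the standard range with 400 or more on the brighter array, up to 6 members of each list with 3 or more members past 2-fold in a direction, genes with opposite probe sets, and RPS4Y1. Other genes were named after their values were seen, as members of a described list or relatives of a named gene. Promoter motifs were not analysed here. Alternatives were other scalings, filters, a floor of 200, 1.5-fold, the median over probe sets, another range and other references.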

Additional observations from a re-analysis of the deposited data

How the results depend on the processing

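Each alternative changed 1 choice. Of 161 named genes, 161, 160 and 160 kept their direction in the values as deposited, after median scaling and after cyclic loess. Most were named for a 2-fold difference on this same pair, so a kept direction says little. Of the 159 past 2-fold as reported, 145, 146 and 150 stayed past it in the same direction. In the values as deposited, 849 probe sets were 2-fold lower and 187 of them below the standard range, and 6 genes had every probe set higher and 30 every one lower. After median scaling these counts were 823, 213, 6 and 30. A filter at the 60th percentile left 348 lower probe sets, since fewer were tested. A floor of 200 left 253 higher and 283 lower, 73 above and 71 below the range, and 6 genes with every probe set higher. A threshold of 1.5-fold gave 41 genes with every probe set higher and 64 lower. The number of other lines closer to the array at 50% confluence than its own line was between 8 and 10 under every alternative that recomputed it.

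Set against the median of the 11 standard arrays in place of the line's own standard array, 157 probe sets were higher and 184 lower, 77 were higher and above the range, and 2 genes had every probe set higher and 7 lower. Against the median of the 10 other lines, chosen after seeing the data, the counts were 138, 172, 70, 2 and 7. The direction of the named genes held in 149 and 147 of 161, but those past 2-fold in the same direction numbered 60 and 47, against 159 as reported. The median of WNT and Notch genes was -0.045 as deposited, -0.030 after median scaling, -0.26 against the 11 arrays and -0.22 against the 10 lines. Against the 11 arrays the reversed genes were SEMA5A at 0.54, ACAN at 0.73, NTRK2 at 0.16, XRCC1 at -0.11, LBR at -0.32, MANBA at 0.13, TNC at -0.034, FBLN1 at -0.076, SPRY1 at 0.90, HOXB7 at -0.21 and ATP2A2 at -0.11. Against the 10 lines they were SEMA5A at 0.55, ACAN at 1.07, NTRK2 at 0.17, XRCC1 at -0.16, LBR at -0.34, MANBA at 0.15, FMOD at 0.0064, GPC3 at 0.029, TNC at -0.15, FBLN1 at -0.084, SPRY1 at 0.91, HOXB7 at -0.21 and ATP2A2 at -0.13. With the median over probe sets, ATP2A2 was -0.16 and PPIL2 -0.021. For the other moved values the cause was not tested. Signal near the floor limits dim genes. No paired analysis was possible because each condition had 1 array, and leaving out an array would leave no pair.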
